A study of Mus musculus with 454 samples.

Results

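The 10 genes described here are Th, Ddc, Slc6a3, Slc18a2, Pitx3, En1, Aldh1a1, Ret, Foxa2 and Lmx1b, which make, store and recover dopamine or mark the midbrain neurons that do so. They were chosen by name, with earlier results of these data known. All 10 were found by Ensembl gene identifier among the 43346 genes of the count table. The samples are poly(A) RNA libraries of mouse brain tissue from the ventral tegmental area (VTA, 58 libraries from females and 57 from males), the amygdala (AMY), the nucleus accumbens (Nac, 112 libraries) and the prefrontal cortex (PFC, 112 libraries). The mice had been socially isolated (SI) or group housed (G), which the series title places in adolescence, and both sexes were used. They had then received cocaine (7.5 mg/kg) or saline on a chronic or an acute schedule, which gave 16 groups in each region and 6 to 8 libraries in each VTA group. The sources used here do not give strain, age at dissection or how the tissue was taken.

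The VTA libraries held 13.99 M to 51.34 M counted reads (M for mega, median 21.58 M), and those of all regions 11.21 M to 52.34 M. The sample titles are numbers that fall into 4 series, and these are tied to the groups. In VTA, series 500 held 12 chronic saline libraries, and series 1000 held 21 chronic cocaine, 16 acute cocaine and 12 acute saline libraries. Series 1100 held 13 acute cocaine and 16 acute saline libraries, and series 1200 held 8 chronic cocaine and 17 chronic saline libraries. No VTA series held both chronic saline and acute saline libraries, so schedule under saline and number series cannot be told apart there. A total of 28 libraries stood apart, 7 of them in VTA, where 4 had high choroid plexus transcripts and 3 high cerebellum transcripts. The labels do not say that libraries are separate animals, so p-values measure the spread between these libraries.

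Dopamine neurons of the ventral midbrain convert tyrosine to L-DOPA with tyrosine hydroxylase (Th), the rate-limiting enzyme, and L-DOPA to dopamine with aromatic L-amino acid decarboxylase (Ddc). The vesicular monoamine transporter (Slc18a2) loads dopamine into vesicles, and the dopamine transporter (Slc6a3), the main target of cocaine, takes it back up from the extracellular space. Transcription factors such as Foxa2, Lmx1b, En1 and Pitx3 specify and maintain these neurons, which project to the accumbens, amygdala and prefrontal cortex and signal reward. VTA tissue also holds GABA neurons, glutamate neurons and glia. Transcripts that mark serotonin neurons were read in these libraries as well, as described further on.

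Th, Ddc and Slc6a3, the genes of synthesis and reuptake, were among those higher on the chronic schedule, as described further on, so the bases before their transcription starts are shown here. RefSeq (GRCm38.p6) gave a promoter window for 9 of the 10 genes. The windows run 5′ to 3′ on the gene's strand, with bases that any transcript holds in an exon left out, and capitals mark matches to the motifs searched. They lie at chr7:142900015-142900245 (minus strand) for Th, chr11:11898145-11898394 (minus strand) for Ddc and chr13:73536497-73536746 (plus strand) for Slc6a3, the first inside the annotated span of the Th gene.
Th: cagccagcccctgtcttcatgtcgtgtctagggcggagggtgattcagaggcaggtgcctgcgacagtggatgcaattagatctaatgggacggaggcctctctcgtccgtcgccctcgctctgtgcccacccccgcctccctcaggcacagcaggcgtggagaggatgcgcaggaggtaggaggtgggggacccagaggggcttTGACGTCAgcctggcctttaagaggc
Ddc: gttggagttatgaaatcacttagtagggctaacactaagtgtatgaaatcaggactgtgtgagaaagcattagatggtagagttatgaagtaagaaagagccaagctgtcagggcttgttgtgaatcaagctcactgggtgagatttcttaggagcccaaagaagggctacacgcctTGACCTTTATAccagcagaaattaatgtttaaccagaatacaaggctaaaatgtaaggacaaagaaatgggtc
Slc6a3: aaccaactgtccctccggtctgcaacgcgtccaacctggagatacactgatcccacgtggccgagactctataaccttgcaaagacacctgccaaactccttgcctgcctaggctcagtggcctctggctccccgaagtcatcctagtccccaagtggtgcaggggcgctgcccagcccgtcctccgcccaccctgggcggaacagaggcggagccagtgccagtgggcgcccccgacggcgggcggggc
The capitals in the Th window are a cyclic AMP response element, TGACGTCA, at position -45 from the start. That motif was in 1.55% of 32851 mouse promoter windows of the same length and, among the 13 windows of the 9 genes, in that of Th. In the Ddc window the capitals are the NR4A motif AAAGGTCA, read on the opposite strand at position -73, and the TATA motif TATAAA on the opposite strand at -68, which overlap. AAAGGTCA was in 1.34% of all windows and TATAAA in 12.4%, the second also in a Foxa2 window. The forkhead motif TGTTTAC (3.17% of all windows), the homeodomain motif TAATTA (4.84%) and the Pitx motif TAATCC (6.25%) were not in any of the 13 windows, and the Slc6a3 window held none of the 6 motifs. Both strands were searched for each motif, and a match is a description of these letters only.

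The synthesis genes Th and Ddc, and Aldh1a1, were far higher in VTA than in the other regions. Th (chr7:142892752-142931128, minus strand, GRCm38) had a median of 834.4 CPM (the count scaled to library size) in VTA (225.0 to 1713), against at most 12.87 CPM, in Nac, in the other regions. Ddc (chr11:11814101-11898144, minus strand) had 560.9 CPM in VTA, against 18.79 CPM in AMY, the highest of the other medians. Aldh1a1 (chr19:20492715-20643465, plus strand), an aldehyde dehydrogenase found in a subset of dopamine neurons, had 686.3 CPM in VTA, against 19.9 CPM in AMY. For each of these genes the lowest VTA library lay above the highest library of any other region.

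Both transporters and the receptor were also highest in VTA. Slc6a3 (chr13:73536747-73578672, plus strand) had a median of 1657 CPM in VTA, against 1.316 CPM in AMY, the next region. Slc18a2 (chr19:59260896-59296012, plus strand) had 628.5 CPM in VTA, against 6.26 CPM in Nac. Ret (chr6:118151745-118197718, minus strand), the receptor tyrosine kinase for GDNF family ligands, had 777.3 CPM in VTA, against 14.06 CPM in AMY. Their VTA minima were 256.5, 174.9 and 253.6 CPM, against maxima of 47.2, 29.67 and 46.45 CPM in the other regions.

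The transcription factor genes were low in VTA and close to 0 elsewhere. En1 (chr1:120602418-120607992, plus strand) had a median of 61.65 CPM in VTA and Lmx1b (chr2:33560965-33640511, minus strand) 34.31 CPM, against at most 0.04494 and 0.1458 CPM in another region. Foxa2 (chr2:148042877-148046969, minus strand) had 14.0 CPM in VTA and a median of 0 in every other region, with no read in 83 AMY, 81 Nac and 83 PFC libraries. Pitx3 (chr19:46135685-46148326, minus strand) had 8.124 CPM in VTA, against 0.03815 CPM. Per kilobase of exon, the VTA order was Slc6a3 (479.3 CPM per kb), Th (352.9), Aldh1a1 (139.0), Ddc (125.7), Slc18a2 (120.3), Ret (114.9), En1 (23.49), Lmx1b (7.03), Foxa2 (5.905) and Pitx3 (5.323). The coefficient of variation over VTA libraries was 28.27% for Foxa2 to 49.08% for Slc6a3, so neighbours from Aldh1a1 to Ret and from Lmx1b to Pitx3 lay closer together than that spread.

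In edgeR's quasi-likelihood test over the libraries of all regions, all 10 genes were higher in VTA than in the mean of the other regions, against 43.6% of 18627 genes higher and 46.3% lower. The log2 differences were 10.22 for En1, 10.13 for Slc6a3, 9.60 for Foxa2, 7.99 for Lmx1b and 7.93 for Pitx3. They were 6.65 for Th, 6.63 for Slc18a2, 6.50 for Ret, 5.69 for Aldh1a1 and 5.61 for Ddc. Each of the 10 genes had reads in every VTA library. Ddc, Slc18a2, Pitx3, Aldh1a1 and Lmx1b overlap a gene on the opposite strand, and the sources used here do not give the strand setting of the counting, so part of their reads may belong to that gene.

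**Figure D1:**
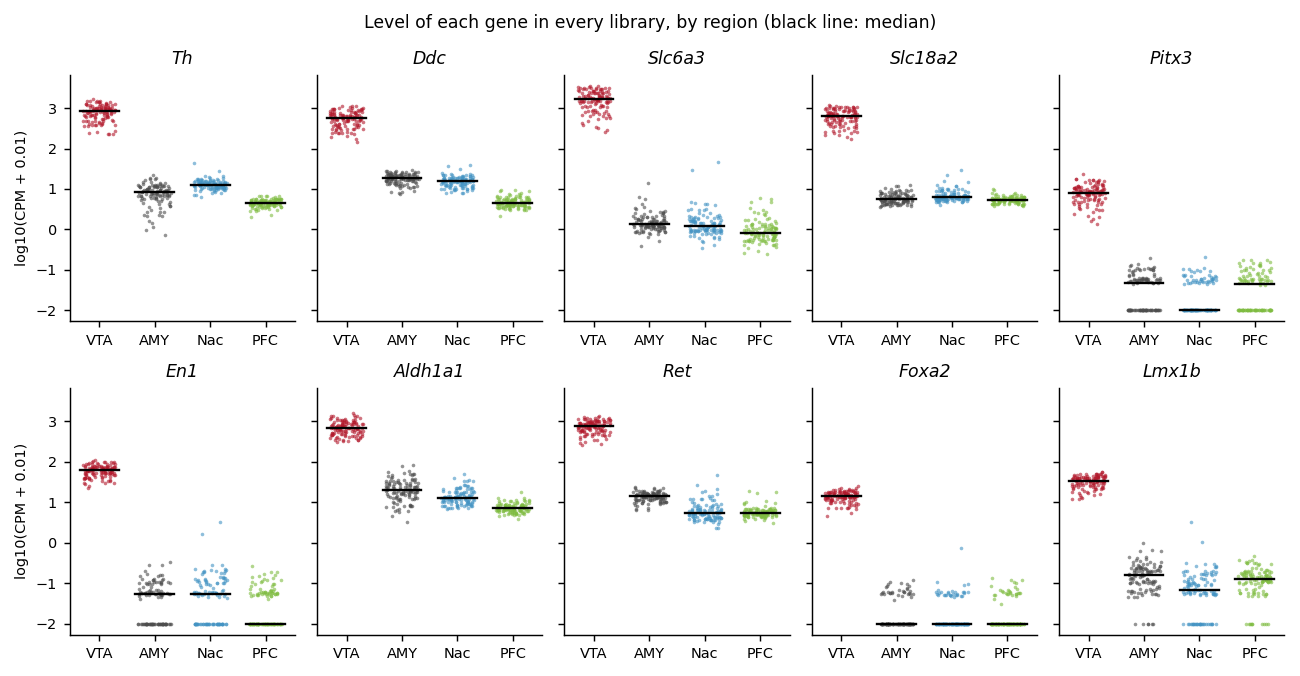
Level of each of the 10 genes in every library, as log10(CPM + 0.01), with 1 panel a gene, VTA at the left and 1 point a library. The VTA points lie above all points of the other regions in each panel, and Foxa2 has a median of 0 CPM outside VTA.

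Outside VTA 2 Nac libraries held high levels of several of these genes. One was Nac replicate 2 of the group-housed females on chronic cocaine, in which opposite-sex transcripts reached 8.25%. It had 47.2 CPM of Slc6a3, against a median of 1.193 CPM in the other Nac libraries, and 3.236 CPM each of En1 and Lmx1b, against 0.04452 and 0.05816 CPM. Its levels were 0.7378% (Pitx3) to 9.434% (Lmx1b) of the VTA medians. The other was Nac replicate 5 of the isolated males on acute cocaine, with 30.17 CPM of Slc6a3, 28.54 CPM of Th, 38.38 CPM of Ddc and 22.07 CPM of Slc18a2. It had 1.631 CPM of En1 and 1.055 CPM of Lmx1b, and was not among the libraries that stood apart.

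Within VTA the 10 genes varied together from library to library. The highest library was 4.586 times the lowest for Lmx1b and 17.28 times for Pitx3, the ends of the range. After group means were removed, the 45 pairs of genes had a median Pearson r of 0.8519 (0.297 to 0.9814) and a median Spearman rho of 0.8512 (0.2346 to 0.9752) over all VTA libraries. The 36 pairs without Foxa2 lay between 0.7142 and 0.9814, while the 9 pairs with Foxa2 lay between 0.297 and 0.6473. The points share a library and its dissection, and in bulk tissue fewer cells of a type and less RNA per cell cannot be told apart.

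The permutation p of Pearson's r, adjusted over the 45 pairs, was at most 0.00142, for Foxa2 with Aldh1a1, whose adjusted permutation p for Spearman's rho was 0.012. For Pearson's r 42 pairs had the smallest p that 100000 resamples can give (1e-05). Without the 2 libraries farthest from the median, r lay between 0.3119 and 0.9791. Within number series 500, 1000, 1100 and 1200 the median r was 0.9607, 0.8593, 0.7994 and 0.8023, and the lowest was -0.1194, for a pair with Foxa2 in series 1100. The 9 pairs with Foxa2 had medians of 0.7781, 0.4542, 0.3326 and 0.6271 in the 4 series, below those of the other 36 pairs in each (0.965, 0.8723, 0.8277 and 0.8749).

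**Figure D2:**
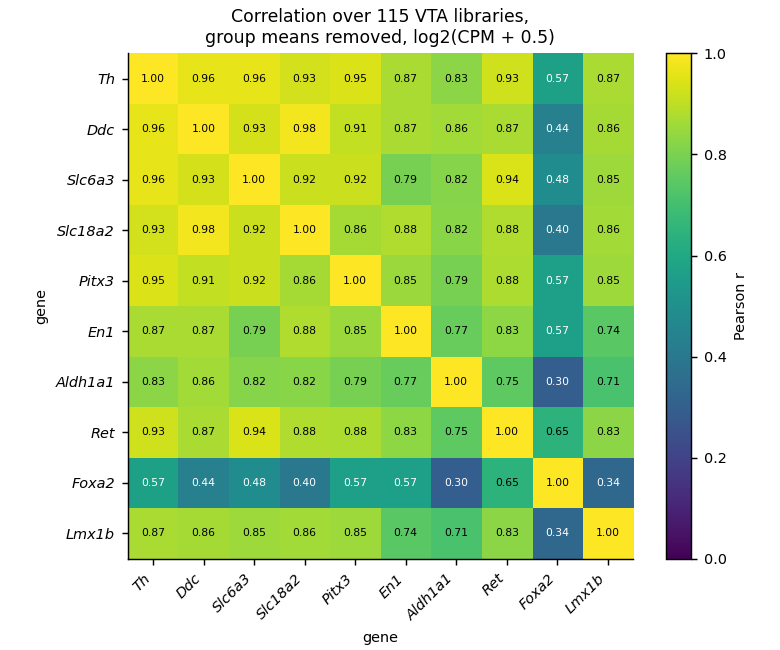
Pearson correlation of each pair of the 10 genes over all VTA libraries after group means were removed, as a heat map with genes on both axes. The Foxa2 row and column hold the lowest values (0.297 to 0.6473), and the other 36 pairs lie above 0.7.

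A score of dopamine neuron content was taken as the mean log2 level of 8 other genes of these neurons (Slc10a4, Chrna6, Chrnb3, Lmx1a, Foxa1, Nr4a2, Drd2 and Ntsr1), and the 10 genes followed it to unequal degrees. With group means removed, Slc6a3 moved by 1.18, Th by 1.05 and Pitx3 by 1.03 log2 units per log2 unit of the score. Ddc moved by 0.89, Slc18a2 by 0.86, Ret by 0.85 and Lmx1b by 0.82, while En1 (0.65), Aldh1a1 (0.61) and Foxa2 (0.39) moved less. The correlation with the score was 0.5512 for Foxa2 and up to 0.9654, for Slc6a3. The 8 genes of the score were also chosen with earlier results of these data known.

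Of 13386 genes with at least 1 CPM, 812 had r over 0.5 with the mean of the 10 genes and 452 had r under -0.5. The most alike were Slc10a4 (r = 0.9789), Chrna6 (0.9714), Drd2 (0.97), Trpc6 (0.9699), Chrnb3 (0.9694), Fam167a (0.962), Cadps2 (0.9612), Ntsr1 (0.9609), Fgf13 (0.9607) and Dlk1 (0.9554). Chrna6 and Chrnb3 encode nicotinic receptor subunits, and Drd2 the dopamine D2 receptor. The least alike were Kcnj3 (r = -0.8387), Hs6st2 (-0.8233), Slc35f3 (-0.816), Rhbdl3 (-0.8022) and Galnt17 (-0.7916).

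Of the VTA comparisons of group levels, only those between the schedules had any of these genes past the threshold in the main fit. Under cocaine 8 of the 10 genes were higher and 1, Foxa2, was lower on the chronic than on the acute schedule by edgeR's quasi-likelihood test, with p adjusted by Benjamini-Hochberg over all genes. Across all 17144 genes tested, 18.2% were higher and 20% lower in that comparison. Under saline it was again 8 higher and 1 lower, against 21.4% of all genes higher and 22.2% lower. Over the 8 pairs of matched groups, the chronic mean was above the acute mean in 8 for Th, Ddc, Slc6a3, Slc18a2, Pitx3, Aldh1a1 and Ret, in 7 for En1, in 4 for Lmx1b and in 0 for Foxa2.

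Slc6a3 moved most. Under cocaine it had a median of 2422 CPM in chronic libraries (731.6 to 3566, n = 29), against 1210.4 CPM in acute libraries (332.0 to 2619, n = 29). Under saline it had 2332 CPM in chronic libraries (919.1 to 3283, n = 29), against 1106.8 CPM in acute libraries (256.5 to 1875, n = 28). The ranges overlapped, but 28 of 29 chronic cocaine and 26 of 29 chronic saline libraries lay above the acute median. The log2 difference was 0.86 under cocaine (SE 0.17, adjusted p = 2.83e-05) and 1.08 under saline (SE 0.17, adjusted p = 2.26e-07).

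Slc18a2, the vesicular transporter, rose with it. It had 854.6 CPM in chronic cocaine libraries (354.9 to 1143.5), against 470.2 CPM in acute cocaine libraries (211.0 to 952.1), a log2 difference of 0.67 (SE 0.14, adjusted p = 4.36e-05). Under saline it had 752.9 CPM in chronic libraries and 508.0 CPM in acute libraries, a log2 difference of 0.71 (SE 0.14, adjusted p = 1.44e-05).

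The synthesis genes Ddc and Th, and Aldh1a1, were higher on the chronic schedule too. Ddc had 733.6 CPM in chronic cocaine libraries (308.3 to 1154.5), against 409.8 CPM in acute cocaine libraries (187.3 to 853.5), and differed by 0.68 (SE 0.14, adjusted p = 5.14e-05). Th had 991.8 CPM in chronic cocaine libraries (365.5 to 1713), against 673.3 CPM in acute cocaine libraries (253.5 to 1286), and differed by 0.49 (SE 0.15, adjusted p = 0.00753). Aldh1a1 had 843.2 CPM in chronic cocaine libraries (466.7 to 1389), against 542.9 CPM in acute cocaine libraries (334.8 to 1109.3), and differed by 0.57 (SE 0.11, adjusted p = 2.8e-05). Under saline the log2 differences were 0.78 for Ddc, 0.58 for Th and 0.80 for Aldh1a1, and 28 of 29 chronic saline libraries lay above the acute saline median of Aldh1a1.

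Ret and 2 of the transcription factor genes were higher as well. Pitx3 had 9.488 CPM in chronic cocaine libraries and 7.488 CPM in acute cocaine libraries, with a log2 difference of 0.63 (SE 0.16, adjusted p = 0.00125). En1 had 71.07 CPM in chronic cocaine libraries and 54.27 CPM in acute cocaine libraries, with a difference of 0.41 (SE 0.12, adjusted p = 0.00307). Ret had 899.0 CPM in chronic cocaine libraries and 683.9 CPM in acute cocaine libraries, with a difference of 0.36 (SE 0.13, adjusted p = 0.0161). Under saline the same 3 genes differed by 0.85, 0.35 and 0.40, and all 3 passed.

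Foxa2, a forkhead factor of floor plate and dopamine neurons, went the other way. It had 13.39 CPM in chronic cocaine libraries (7.118 to 19.19), against 16.55 CPM in acute cocaine libraries (7.711 to 21.2), and 26 of 29 chronic libraries lay below the acute median. Under saline it had 11.72 CPM in chronic libraries (4.531 to 17.83), against 17.26 CPM in acute libraries (6.781 to 24.97), with 28 of 29 below. The log2 difference was -0.31 under cocaine (SE 0.10, adjusted p = 0.00987) and -0.49 under saline (SE 0.10, adjusted p = 5.64e-05). Lmx1b, a LIM homeodomain factor, had 34.31 CPM in chronic cocaine libraries and 34.02 CPM in acute cocaine libraries, and its difference was 0.06 (95% interval -0.19 to 0.31, adjusted p = 0.758). Under saline it was -0.04 (adjusted p = 0.814).

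**Figure D3:**
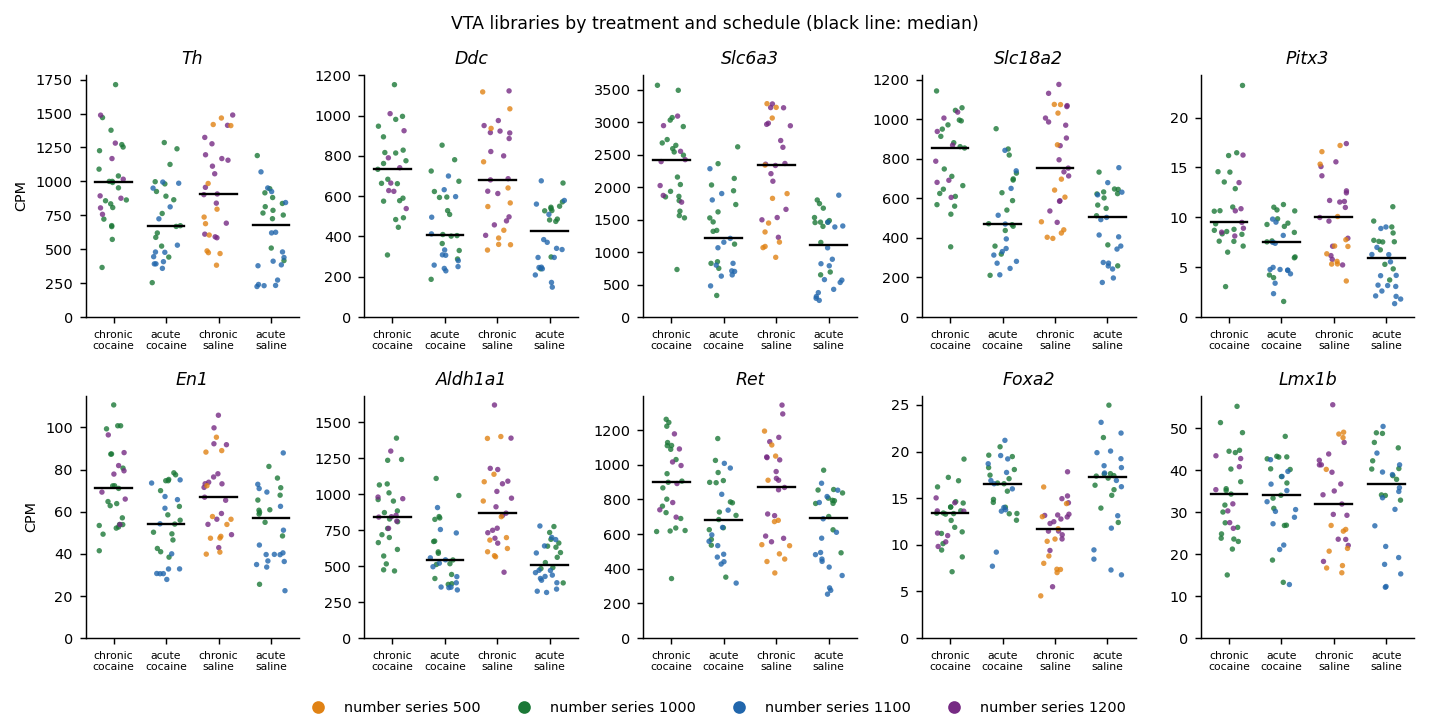
Level in CPM of each of the 10 genes in every VTA library, with 1 panel a gene, groups on the horizontal axis (chronic cocaine, acute cocaine, chronic saline, acute saline), colour for number series and a black line for the median. Slc6a3 has a median of 2422 CPM in chronic cocaine and 1210.4 CPM in acute cocaine libraries, and Foxa2 is lower on the chronic schedule.

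The comparison under cocaine could be made within number series 1000, which held 21 chronic and 16 acute cocaine libraries. There 4 of the 10 genes were higher, against 13.4% of 17350 genes, and 1 was lower, against 13.3%. Slc6a3 differed by 0.63 (SE 0.19, adjusted p = 0.012), Ddc by 0.49 (adjusted p = 0.0202), Slc18a2 by 0.46 (adjusted p = 0.0232), Aldh1a1 by 0.41 (adjusted p = 0.0214) and Foxa2 by -0.33 (adjusted p = 0.00923). Th, at 0.29 (SE 0.17, adjusted p = 0.201), did not pass, nor did Pitx3 (0.40), En1 (0.22), Ret (0.19) or Lmx1b (-0.05). Slc6a3 had 2491 CPM in chronic libraries of that series, against 1494 CPM in its acute libraries, with 20 of 21 chronic libraries above the acute median.

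With number series as a term in the fit, 4 genes were higher and 1 lower under cocaine, the same 5 as within series 1000, against 16% of all genes higher and 16.8% lower. Only series 1000 held cocaine libraries of both schedules, so both fits lean on the same libraries and are not separate tests. Under saline 0 of 10 passed in that fit, against 4.15% higher and 5.63% lower, and Slc6a3, at 0.81, had the lowest adjusted p of the 10 (0.104).

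The differences were also fitted with the dopamine neuron content score as a term. In the fits the score was the mean of the same 8 genes, each scaled to equal spread over VTA libraries, with group differences kept. Under cocaine 8 genes were then higher and 2 lower, against 21% and 21.8% of all genes, and under saline 7 were higher and 2 lower, against 24.5% and 23.7%. Slc6a3 kept 0.60 under cocaine and 0.86 under saline, and Th kept 0.22 and 0.33. Foxa2 reached -0.44 and -0.61 and Lmx1b -0.18 and -0.29, so both were lower relative to the score on the chronic schedule. Genes of the score changed with schedule themselves: 5 of its 8 were higher and 1 lower under each treatment in the main fit. In that fit 18.2% of all genes were higher and 20% lower under cocaine, and 21.4% and 22.2% under saline.

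Other genes used as markers of these neurons were read from a list of 19, not all of which were highest in VTA. Under cocaine and under saline alike, 11 were higher and 5 lower on the chronic schedule, with a median log2 difference of 0.37 in each and about 0.00 over all genes. Over all genes, 18.2% were higher and 20% lower under cocaine, and 21.4% and 22.2% under saline. Sncg, which encodes gamma-synuclein, differed by 0.70 under cocaine and 0.67 under saline, the receptor Drd2 by 0.62 and 0.74, and the nicotinic subunit gene Chrna6 by 0.57 and 0.66. Sox6 (0.36 and 0.37), a factor of ventral tier dopamine neurons, and Kcnj6 (0.48 and 0.69), which encodes the potassium channel GIRK2, were also higher.

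The 5 lower genes of that list were Vip (-1.85 under cocaine and -2.46 under saline), Lmx1a (-0.86 and -1.22), Cck (-0.66 and -0.76), Calb1 (-0.59 and -0.70) and Otx2 (-0.67 and -0.52). Vip and Cck encode neuropeptides, Calb1 calbindin, and Lmx1a and Otx2 transcription factors of the ventral midbrain. Vip, Cck and Calb1 had lower medians in VTA (2.019, 30.79 and 81.06 CPM) than in PFC (39.82, 222.7 and 126.3 CPM). Which cells of the tissue carry their differences was not tested. Otx2 is also expressed in choroid plexus, and without the libraries that stood apart it differed by -0.33 under cocaine and -0.45 under saline. Within series 1000 under cocaine all 5 were again lower and 5 of the 19 were higher, among them Sncg (0.60), Drd2 (0.43) and Sox6 (0.27). Over all genes there, 13.4% were higher and 13.3% lower.

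Of 11 measured genes for other steps of dopamine synthesis and breakdown, 3 were higher and 1 lower under cocaine, and 5 were higher and 1 lower under saline. Gch1, which makes the cofactor that Th needs, differed by 0.34 under cocaine and 0.33 under saline. Maob, a monoamine oxidase gene, differed by -0.19 and -0.27. Of 7 measured ligand and co-receptor genes of the Ret pathway, 2 were higher and 1 lower under each treatment. The counts of both lists are read against 18.2% of all genes higher and 20% lower under cocaine, and 21.4% and 22.2% under saline. The GDNF co-receptor gene Gfra1 differed by 0.25 and 0.24, and the neurturin co-receptor gene Gfra2 by -0.24 and -0.33.

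**Figure D4:**
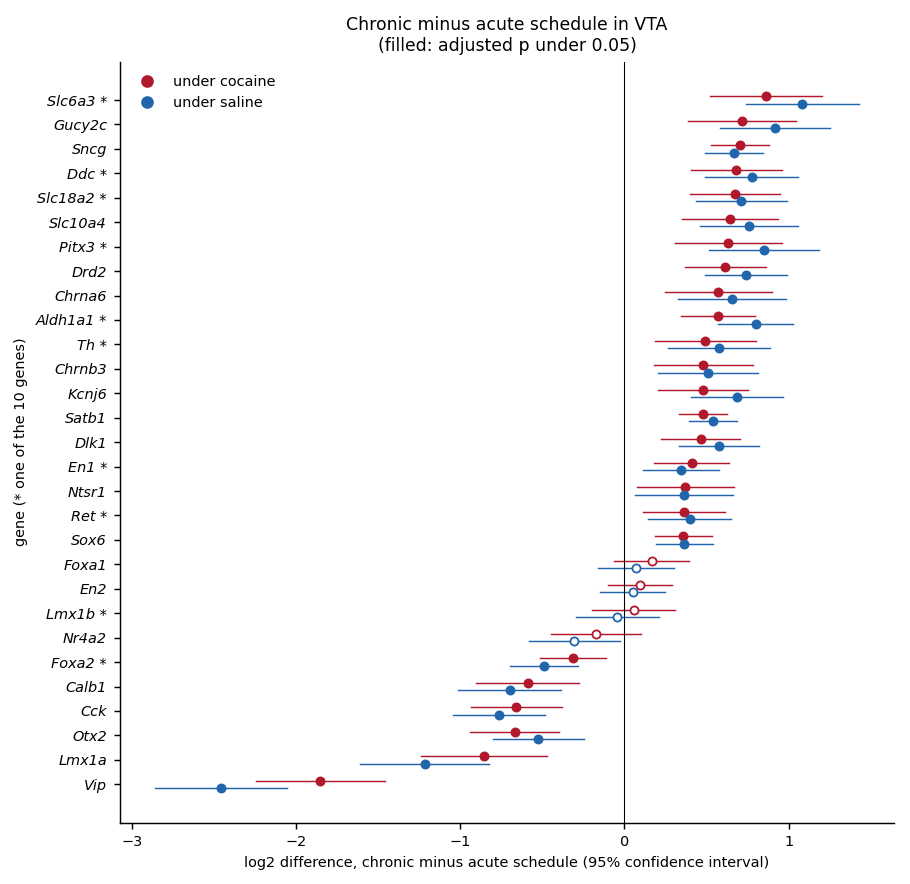
Log2 difference, chronic minus acute schedule, of the 10 genes and 19 other dopamine neuron genes in VTA, with 1 row a gene, 95% intervals as bars, and cocaine and saline in 2 colours. Slc6a3 (0.86 and 1.08) is the highest of the 10 genes, and Vip (-1.85 and -2.46), Lmx1a and Foxa2 lie below 0.

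Markers of several other cell types moved with the schedule as well, and their part in these differences was not tested. Counts of markers here and in the next paragraph are read against all genes. Of those, 18.2% were higher and 20% lower under cocaine, and 21.4% and 22.2% under saline. Of 6 GABA neuron markers 5 were higher under each treatment, and their summed level was 889.2 to 1727 CPM in chronic cocaine libraries and 597.1 to 1149 CPM in acute cocaine libraries. Of 5 glutamate neuron markers 3 were lower under cocaine and 4 under saline, with 102.5 to 401.7 CPM in chronic cocaine libraries and 238.7 to 564.1 CPM in acute cocaine libraries. All 6 microglia markers were higher, with medians of 221.5 CPM in chronic cocaine and 180.4 CPM in acute cocaine libraries. The 6 serotonin neuron markers summed to 28.02 to 258.5 CPM in chronic cocaine and 31.51 to 270.9 CPM in acute cocaine libraries. Under saline the sum was 25.99 to 241.3 CPM in chronic and 35.6 to 925.6 CPM in acute libraries. Its median was 113.2 CPM in series 500, against 40.2, 54.28 and 42.28 CPM in series 1000, 1100 and 1200. The list's r with the mean of the genes described here was -0.42. The part of serotonin neurons in their levels was not tested.

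The 9 markers of hypothalamus and pituitary summed to 2.526 to 435.1 CPM in chronic cocaine and 1.825 to 78.89 CPM in acute cocaine libraries, and to 2.498 to 1275 CPM in chronic saline and 1.948 to 20.25 CPM in acute saline libraries. The 12 libraries of series 500, all chronic saline, held 88.62 to 1275 CPM (median 271.3), against medians of 5.22, 3.179 and 4.657 CPM in series 1000, 1100 and 1200. Of 8 cerebellum markers 4 were higher and 2 lower under each treatment, while their summed level had a lower median on the chronic schedule. It was 89.96 CPM in chronic cocaine libraries (60.29 to 491.3) and 115.2 CPM in acute cocaine libraries (76.78 to 243.2), and 85.27 CPM in chronic saline and 124.1 CPM in acute saline libraries. Cbln1 (74.17 CPM) and Car8 (20.66 CPM) had the highest VTA medians of these markers. Gabra6, Pcp2 and Fat2 had 0.1284, 0.2691 and 0.2611 CPM. The 8 choroid plexus markers summed to a median of 518.5 CPM in chronic cocaine libraries (lowest 436.2 CPM) and of 521.9 CPM in acute cocaine libraries (394.4 to 16520 CPM), and Kcnj13 among them had a median under 0.1 CPM. Enpp2 alone had a median of 505.0 CPM over VTA libraries, and Ttr, the next, 7.328 CPM. The medians of the sum thus mostly reflect Enpp2. Without the libraries that stood apart, 9 of the 10 genes still passed under each treatment.

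No difference with isolation was detected for these genes in VTA. With isolated minus group-housed taken over 8 pairs of groups, 0 of 10 genes passed, and 0% of all genes did, although 3.31% had an unadjusted p under 0.05 in edgeR's test and limma and DESeq2 called 0 as well. The log2 differences lay between -0.05 and 0.07, with 95% intervals inside -0.19 to 0.31. Th averaged 839.7 ± 331.7 CPM in isolated mice (SD, n = 56) and 811.1 ± 342.6 CPM in group-housed mice (n = 59), and Slc6a3 1772 ± 819.5 CPM and 1697 ± 885.2 CPM. In saline females and in saline males alone 0 of 10 passed too (0% of all genes in each by all 3 tools; edgeR's unadjusted p was under 0.05 for 2.78% and 3.33%). None of the 10 genes reached an unadjusted p under 0.05 in these 3 housing comparisons by any of the 3 tools.

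Nor was a difference with cocaine detected, on either schedule. After acute cocaine the differences from acute saline lay between -0.06 and 0.28, with intervals inside -0.31 to 0.62, and 0 of 10 genes passed (0.0467% of all genes). The highest was Slc6a3 at 0.28 (SE 0.17, adjusted p = 0.89). After chronic cocaine they lay between -0.12 and 0.17, with intervals inside -0.34 to 0.40, and 0 of 10 passed (0.0817% of all genes). Foxa2 was the highest there, at 0.17. None of the 10 genes had an unadjusted p under 0.05 in edgeR's test for acute or chronic cocaine, and limma and DESeq2 called 0 of 10 as well.

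Between females and males 0 of 10 genes passed (0.332% of all genes), with differences between -0.05 and 0.15 and intervals inside -0.19 to 0.39. None of them had an unadjusted p under 0.05 by edgeR, limma or DESeq2. Slc6a3 averaged 1809 ± 837.5 CPM in females (SD, n = 58) and 1657 ± 865.1 CPM in males (n = 57). The change of the chronic cocaine effect with housing and that of the housing effect with sex were passed by 0 of 10 genes (0% of all genes in each by edgeR, limma and DESeq2; edgeR's unadjusted p was under 0.05 for 1.5% and 1.91%).

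The acute cocaine effect was read in both housings. In isolated mice Slc6a3 had a median of 1464 CPM after acute cocaine (648.2 to 2619, n = 15), against 889.2 CPM after acute saline (289.3 to 1745, n = 13). In group-housed mice it had 838.4 CPM after acute cocaine (332.0 to 2360, n = 14), against 1386 CPM after acute saline (256.5 to 1875, n = 15). The medians thus stood in opposite order, but the libraries overlapped over most of their range. These arms drew unequally on the number series: series 1000 gave 9 of the 15 isolated cocaine and 5 of the 13 isolated saline libraries, and 7 each of the group-housed ones, and the rest were of series 1100. In isolated mice the median was 1618 CPM after acute cocaine, against 1454 CPM after acute saline, within series 1000, and 946.2 against 550 CPM within series 1100. In group-housed mice it was 851.1 CPM after acute cocaine, against 1460 CPM after acute saline, within series 1000, and 710.5 against 927.1 CPM within series 1100. The order of the medians in each housing was the same in both series, but the group-housed means in series 1100 ran the other way, at 1053 CPM after acute cocaine and 965.5 CPM after acute saline.

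The difference between these effects, isolated minus group-housed, was 0.70 for Pitx3, 0.66 for Slc6a3, 0.65 for Th, 0.58 for Lmx1b and 0.56 for Aldh1a1, and 0.08 for Foxa2. Its median over the 10 genes was 0.55, against 0.01 over all genes. By edgeR's test 0 of 10 passed (1.28% of all genes), the lowest adjusted p was 0.163, and 4 had an unadjusted p under 0.05, against 18.6% of all genes. With the dopamine neuron content score in the fit the 10 differences lay between -0.17 and 0.13. The 220 genes called over all genes became 0 without the libraries that stood apart, and the median of the 10 genes was then 0.60. Among the libraries left out were replicates 2 and 8 of the isolated females and replicate 7 of the isolated males on acute cocaine. Replicate 2 of the group-housed males on acute saline was also left out. All of these had high choroid plexus transcripts.

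In isolated mice alone acute cocaine gave 0.03 to 0.63 and 0 of 10 genes passed (0.554% of all genes). By edgeR's test Pitx3, Slc6a3, Aldh1a1 and Th had unadjusted p of 0.01075 to 0.0339 there, and 8.59% of all genes were under 0.05. In group-housed mice alone acute cocaine gave -0.35 to -0.05 and 0 of 10 passed (0.332%). The lowest unadjusted p there, by the same test, was 0.0531 for Lmx1b, and 16% of all genes were under 0.05. Within series 1000, Lmx1b was lower after acute cocaine in group-housed mice by edgeR's test (-0.62, SE 0.21, adjusted p = 0.0239, against 25% of all genes called there). Its mean was 28.57 CPM after acute cocaine (n = 7), against 44.13 CPM after acute saline (n = 7), and the ranges of 13.29 to 43.16 and 38.69 to 48.9 CPM overlapped. Within series 1100 that difference was -0.07 (adjusted p = 0.977). Of the other 19 dopamine neuron genes 1 passed for the change of the effect with housing, Otx2 (1.04, adjusted p = 0.0348), which without the libraries that stood apart was at 0.28 (adjusted p = 0.403).

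**Figure D5:**
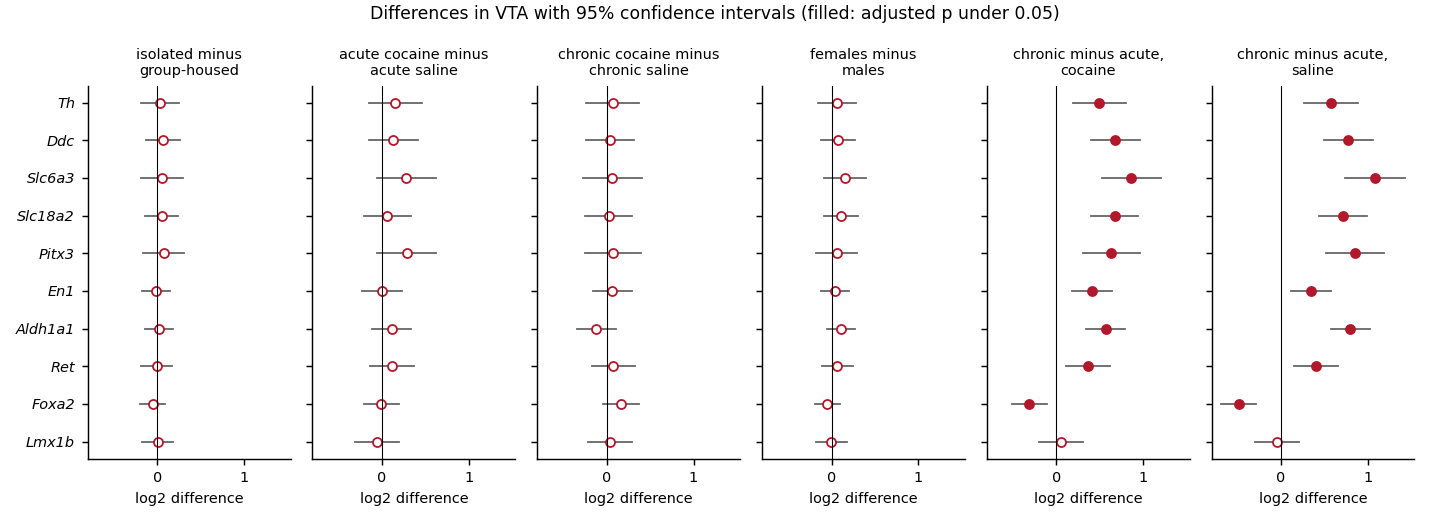
Log2 difference of each of the 10 genes in 6 VTA comparisons, with 1 panel a comparison, 1 row a gene and 95% intervals as bars. In the housing, cocaine and sex panels the values lie within -0.12 to 0.28, and in the schedule panels Slc6a3 reaches 0.86 and 1.08.

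Levels were also read by number series, which is tied to schedule and treatment. Slc6a3 had a median of 1636 CPM in series 500, 1731 CPM in series 1000, 798.5 CPM in series 1100 and 2392 CPM in series 1200, while Foxa2 had 9.591, 14.87, 16.89 and 12.77 CPM. With the 16 groups in the fit, series 1100 minus series 1000 was -0.65 for Slc6a3 (SE 0.16), -0.58 for Pitx3, -0.50 for Th, -0.46 for Ddc, -0.45 for Slc18a2 and -0.42 for Ret. It was -0.32 for En1, -0.31 for Lmx1b, -0.29 for Aldh1a1 and -0.11 for Foxa2. In the joint test of the 3 series terms 9 of 10 genes had an unadjusted p under 0.05, against 12.6% of all genes, but 0 of 10 passed after adjustment (0.257% of all genes), with the lowest adjusted p at 0.076 for Ret.

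In the other regions Pitx3, En1, Foxa2 and Lmx1b were under the filter on low counts, and the other 6 genes were tested. For housing, acute cocaine, chronic cocaine and sex 0 of 6 passed in AMY (0%, 0%, 0.0518% and 2.19% of all genes) and in Nac (0%, 0%, 0.22% and 0.272%). In PFC 0 of 6 passed for housing (0%), acute cocaine (0.0647%) and sex (1.12%), and 2 of 6 for chronic cocaine, against 7.09% of all genes.

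The PFC genes were Slc6a3 and Slc18a2. Slc6a3 had a median of 0.9555 CPM after chronic cocaine (0.4211 to 6.057, n = 28), against 0.7588 CPM after chronic saline (0.2574 to 2.671, n = 26), with a log2 difference of 0.74 (SE 0.24, adjusted p = 0.0409). Slc18a2 had 5.386 CPM after chronic cocaine and 4.709 CPM after chronic saline, with a difference of 0.22 (SE 0.07, adjusted p = 0.0422). Neither passed with number series in the fit, where the differences were 0.80 and 0.29.

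For schedule under cocaine, Aldh1a1 was higher in AMY, at a median of 29.57 CPM in chronic and 15.35 CPM in acute libraries (log2 difference 0.90, SE 0.21, adjusted p = 0.00143). Ddc was lower in AMY, at 16.05 CPM in chronic and 19.85 CPM in acute libraries (-0.31, SE 0.10, adjusted p = 0.0208). These were 2 of 6 genes, against 18.4% of all genes, and both passed within series 1000 as well (1.06 and -0.39). Ddc thus stood higher on the chronic schedule in VTA and lower in AMY, a difference that was not itself tested.

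In PFC under cocaine Slc6a3 (0.72, adjusted p = 0.0193) and Ddc (0.27, adjusted p = 0.0266) were higher on the chronic schedule, against 18.5% of all genes called, and in Nac 0 of 6 passed (24.3% of all genes). Without the Nac libraries that stood apart, 3 of 6 were lower there, Ddc (-0.37), Slc18a2 (-0.25) and Ret (-0.71), against 17.6% of all genes higher and 16% lower. Within series 1000 in Nac Slc6a3 was higher (1.38, adjusted p = 0.0121, against 4.65% of all genes called). That fit held replicate 2 of the group-housed females on chronic cocaine, which stood apart, at 47.2 CPM of Slc6a3. The next highest library of its group had 4.752 CPM, and the fit within series 1000 was not repeated without replicate 2. In PFC with number series in the fit, Ddc passed (0.39) and Slc6a3 did not, against 12% of all genes. Under saline 0 of 6 passed in AMY (20.4% of all genes), Ret was lower in Nac (-0.57, adjusted p = 0.03, against 20.9%) and Aldh1a1 higher in PFC (0.25, adjusted p = 0.0463, against 23.3%), where Slc18a2 passed only without the libraries apart (-0.21). With number series in the fit, neither of the saline differences passed.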

How the data were processed

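The authors deposited a table of raw counts of reads per gene for every library. Per the labels' protocols, 300 ng of total RNA went into stranded poly(A) libraries, pooled in lots of 21 and read as 50-base single ends in 3 runs a pool. Per the submitters' processing notes STAR, featureCounts, limma and GRCm38/mm10 were used, and the sources used here do not give their versions, the annotation or the strand setting.

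The counts were tested with edgeR 4.0.16 (quasi-likelihood test, robust, TMM scaling, low-count filter) in R 4.3.3, with the 16 groups of a region as cell means and Benjamini-Hochberg adjustment over all genes tested (threshold 0.05). Contrasts weigh matched pairs of groups equally. Levels are CPM, TMM-scaled over the libraries of all regions, and correlations use log2(CPM + 0.5) without group means. Alternatives were limma 3.58.1, DESeq2 1.42.0, other scaling, no filter, number series or dopamine neuron content as terms, each series alone, and leaving out libraries that stood apart (high opposite-sex transcripts, over 5%, principal components or markers of other tissue). The scripts were tested on simulated data. The 10 genes and all lists were chosen with earlier results of these data known. The genes named are these 10, the 10 most and 5 least correlated with their mean, and genes of the lists; Otx2 without the libraries apart was looked at after its values were seen. Title numbers recur across regions, but the labels do not say that a number is a mouse, so the main fits have no replicate block. The closest pair of VTA libraries of a group still had a chi-square of 4.132 per degree of freedom, so none was taken as a duplicate.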

Additional observations from a re-analysis of the deposited data

Results flagged for a closer look

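Of 160 sets of libraries (10 genes in 16 VTA groups), 15 held a library far from the others of its group, and chance gives such a gap in about 1 in 20 sets. Most came from 2 libraries that were high for several of the genes at once.

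Replicate 2 of the group-housed males on acute cocaine was the highest of 7 for 5 genes. It had 1239.5 CPM of Th (next 530 CPM), 781.2 CPM of Ddc (next 330), 2360.2 CPM of Slc6a3 (next 851), 849.6 CPM of Slc18a2 (next 359) and 834.9 CPM of Aldh1a1 (next 520). Replicate 5 of the isolated males on chronic cocaine was the highest of 6 for 7 genes. It had 1281.7 CPM of Th (next 857 CPM), 925.2 CPM of Ddc (next 628), 3092.2 CPM of Slc6a3 (next 2020) and 1035.7 CPM of Slc18a2 (next 681). It also had 88.1 CPM of En1 (next 62.9 CPM), 1178.1 CPM of Ret (next 801) and 43.4 CPM of Lmx1b (next 30.0). Foxa2 was not far from the others in either library.

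The other 3 sets concerned 1 gene each. Aldh1a1 was at 1618.7 CPM in replicate 1 of the group-housed females on chronic saline (next 972 CPM). Foxa2 was at 7.71 CPM in replicate 5 of the group-housed females on acute cocaine, the lowest of 7 (next 14.6 CPM). Lmx1b was at 12.8 CPM in replicate 8 of the isolated females on acute cocaine, the lowest of 8 (next 34.0 CPM), a library that stood apart for its choroid plexus transcripts.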

How the results depend on the processing

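Of 233 alternatives tried on counts of the 10 genes called, 214 stayed within 1.5 times the main count. Counts of 0 in both fits were taken as the same. In VTA the main count was 0 for every comparison except those between the schedules. The 214 therefore says little about how stable the calls are. The schedule difference under cocaine was called for 9 genes, and for 5 within series 1000, with number series in the fit, with series in limma's fit and with series but without the libraries apart. These fits lean on the same series 1000 libraries. Under saline 9 were called, 5 with content and series in the fit, and 0 with series in the fit, in limma's fit with series and with series but without the libraries apart. The 2 PFC calls for chronic cocaine became 0 with series in the fit and within series 1200. Single genes were tried 250 times: 194 kept direction and call, 49 lost and 1 gained the call, and Lmx1b under cocaine turned round in 6. Lmx1b was at 0.06, and at -0.18 with content, -0.17 with content and series, -0.12 with series, -0.15 with series in limma's fit, -0.13 with series but without the libraries apart and -0.050 within series 1000. The causes were not tested. Leaving out each of the 5 AMY libraries of isolated males on acute cocaine called 0 genes each time.

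Counts over all genes moved more. The change of the acute effect with housing gave 220 genes, and 336 by DESeq2, 6 by limma, 85 with no filter, 78 with content, 2297 within series 1000, 0 within series 1100 and 0 without the libraries apart. Acute cocaine gave 8, and 0 to 544 under alternatives; chronic cocaine 14, and 0 to 18; sex 57, and 10 within series 500 to 75 by DESeq2. With series in the fit the saline schedule count was 1677 in place of 7470, and the PFC chronic cocaine count was 1, against 7.09% of all genes. For schedule under saline it was 179 in place of 3540 in AMY, 20 in place of 3617 in Nac and 84 in place of 3954 in PFC. Within series 1200 sex gave 12 in place of 381 genes in AMY, 12 in place of 47 in Nac and 15 in place of 191 in PFC. Within series 1000 schedule under cocaine gave 814 in place of 4192 genes in Nac. The region fit with title number as replicate block called all 10 genes, as did the fit without it (Th 6.59 and 6.62). Same-numbered libraries of 2 regions deviated together (r over 0.1) in 216 of 612 pairs. Their median r was 0.0321 to 0.0889 by pair of regions, against -0.0153 to -0.00127 for other numbers of the same sex, housing, dose and schedule. Each of the 129 title numbers fell in 1 such combination. Whether a number is 1 mouse was not settled, so the main fits pair no samples. Pitx3, Foxa2 and Lmx1b are read least deeply, and few counts outside VTA limit their values there.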
